A study of Mus musculus with 6 samples.

Results

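The genes described here encode enzymes that oxidise or hydrolyse small molecules: the cytochromes P450 (Cyp), the aldehyde dehydrogenases (Aldh), the flavin-containing monooxygenases (Fmo) and the carboxylesterases (Ces). Members were taken by name, as every gene whose symbol starts with one of these 4 family names followed by a number. This gave 108 of the 26458 gene symbols measured, of which 76 were Cyp, 20 Aldh, 6 Fmo and 6 Ces. A total of 30 members reached 10 or more read counts in at least 3 of the 6 libraries and are described below (15 Cyp, 11 Aldh, 3 Fmo and 1 Ces). The remaining 78 are treated as silent.

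RNA was sequenced from heart cells of C57BL/6 mice that were sorted as Thy1+HE-, Thy1 being a surface protein that many cardiac fibroblasts carry. HE is used here as the labels write it. One group had a sham operation and the other transaortic constriction (TAC), a surgical narrowing of the aorta that makes the left ventricle pump against high pressure, and both groups were sampled 7 days later with 3 libraries each. Neither the age of the mice nor whether a library came from 1 animal or a pool is given in the labels, so p-values measure the spread between these libraries, which may be partly technical. The cells were sorted on surface marks and not by a genetic lineage label. In bulk RNA, fewer cells of a type and less RNA per cell cannot be told apart.

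Cytochromes P450 insert oxygen into lipids, steroids, vitamins and foreign compounds, drawing electrons from a reductase. Aldehyde dehydrogenases oxidise aldehydes to acids, and the Aldh1a enzymes carry out the last step of retinoic acid synthesis, a signal that the developing heart needs and that fibroblasts and epicardial cells can make. Flavin-containing monooxygenases oxygenate nitrogen and sulphur compounds, and carboxylesterases cleave ester bonds in lipids and drugs.

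Read counts on genes summed to between 1909337 and 2056097 per library in sham and between 3351479 and 4207312 in TAC, so that low members were measured less precisely in sham. Of the matched reads, 34.1, 30.7 and 25.4% were counted on genes in sham replicates 1 to 3. In TAC replicates 1 to 3 the share was 39.0, 43.2 and 38.7%, without overlap. The part of this difference between the groups' libraries in the results was not tested. Values of 1 gene between libraries are given in CPM (counts relative to the scaled library total), and a count of 3 in 1 library was worth 0.699 to 1.55 CPM. Levels of different genes are compared in RPKM, the deposited values that divide counts by gene length and library size. Fibroblast markers summed to 22600 to 27957 CPM in sham and 23924 to 26643 in TAC. Within these sums Dcn was lower in TAC and the rest together higher, with values given under the cell markers below. Dcn was not an exception, because 6 of the 10 fibroblast markers were called lower by the test described below and 2 higher. Of all genes tested, 10.4% were called lower and 8.28% higher. The median log2 difference of the 10 markers was -0.68. Every other marker list summed to at most 4161 CPM in every library.

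After TAC, 11 of the 30 described members fell and 1 rose. The enzymes that fell were Fmo1, Fmo2 and Fmo5, the carboxylesterase row Ces3, the P450s Cyp27a1, Cyp2s1, Cyp4v3 and Cyp1b1, and the aldehyde dehydrogenases Aldh1a1, Aldh2 and Aldh6a1. The member that rose was Aldh1a2. Calls rest on an adjusted p below 0.05 in edgeR's quasi-likelihood test, with the adjustment made over all 12612 genes tested. Over those genes 10.4% were called lower and 8.28% higher. Without sham replicate 1 the lower calls numbered 7, because Cyp1b1, Cyp4v3, Fmo1 and Fmo5 lost theirs while keeping their direction, and Cyp26b1 joined Aldh1a2 as a higher call.

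Before any test, 12 of the 30 members had all 3 TAC libraries below all 3 sham libraries and 2 had them above, against 18.5% and 17.7% of all genes tested. The median log2 difference of TAC against sham was -0.37 over the 30 members and 0.01 over all genes. It was -1.03 over the 3 Fmo genes, -0.39 over the 15 Cyp genes and -0.09 over the 11 Aldh genes. The 18 members without a call had log2 differences from -0.72 to 0.78. All 30 described members were tested, and 2 of them, Aldh1a7 and Cyp2r1, had met the count rule through their TAC libraries alone.

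**Figure D1:**
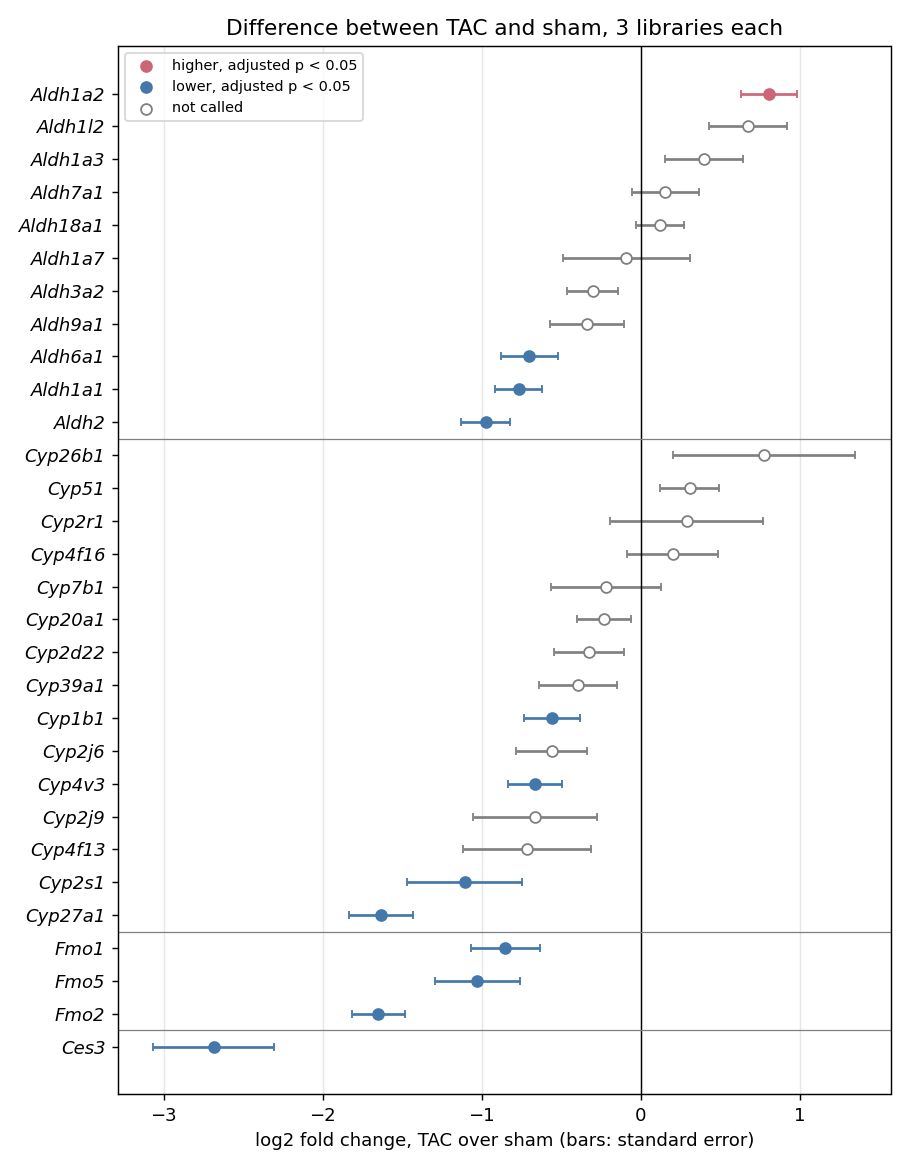
Log2 difference of TAC against sham for each of the 30 described members with its standard error, ordered within families, with called members marked. The values run from -2.69 for Ces3 to 0.81 for Aldh1a2, and all 3 Fmo genes lie on the lower side.

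In sham cells the highest levels per gene length were those of Aldh1a1 (89.0 ± 15.1 RPKM, SD, n = 3) and Aldh1a2 (73.3 ± 5.38), whose libraries overlapped. Fmo2 (54.8 ± 6.64 RPKM) and Cyp1b1 (53.2 ± 8.30) followed and also overlapped each other, and Aldh2 came next with 35.1 ± 1.02 RPKM. After TAC the order was Aldh1a2 (127 ± 30.5 RPKM), Aldh1a1 (52.0 ± 4.69), Cyp1b1 (36.0 ± 8.31) and Cyp20a1 (21.8 ± 0.742). Fmo2 went from place 3 to place 6 and Ces3 from place 10 to place 23 of 30. Summed RPKM of the Aldh family was 268.8 ± 15.9 in sham and 263.9 ± 32.2 in TAC, a difference within the spread of the libraries. The Cyp sum was 187.1 ± 8.27 against 133.6 ± 11.8 RPKM and the Fmo sum 92.2 ± 12.8 against 37.4 ± 8.12 RPKM.

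**Figure D2:**
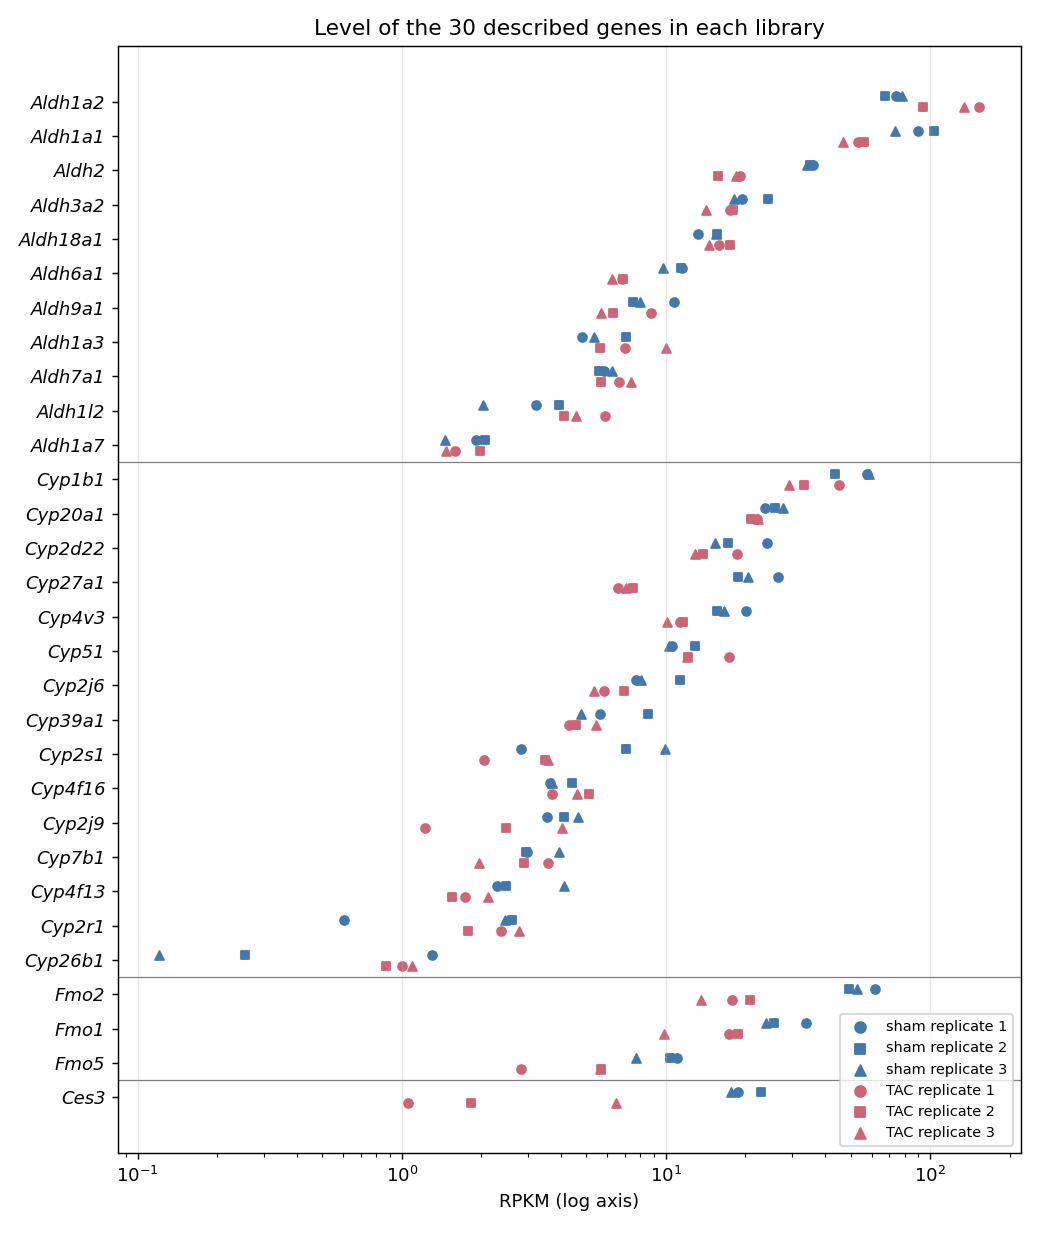
RPKM of each of the 30 described members in each of the 6 libraries on a log axis, with sham and TAC libraries in different colours. Aldh1a1, with a mean of 89.0 RPKM in sham, and Aldh1a2, with 127 in TAC, head the 2 groups, and Ces3 has the widest gap between them.

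The most abundant members were the retinaldehyde dehydrogenases, which turn retinaldehyde into retinoic acid, and they moved in opposite directions. Aldh1a1 (chromosome 19, 20492583 to 20643463 in GRCm38) had 186, 206 and 148 CPM in sham replicates 1 to 3 and 112, 110.1 and 94.7 CPM in TAC replicates 1 to 3. Every TAC library was below every sham library, and the gene fell 1.70-fold (log2 difference -0.77 ± 0.15 SE, edgeR adjusted p = 0.00186). Aldh1a2 (chromosome 9, 71215789 to 71296243), the main retinoic acid maker of the embryonic heart, had 167, 145 and 170.2 CPM in sham and 349.7, 200.5 and 294 CPM in TAC.

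All 3 TAC libraries of Aldh1a2 were above the sham libraries, with TAC replicate 2 the lowest of them, and the gene rose 1.75-fold (log2 difference 0.81 ± 0.18, edgeR adjusted p = 0.00428). The remaining retinaldehyde dehydrogenase, Aldh1a3, was low and was not called, with 16.5, 23.3 and 17.9 CPM in sham and 24.5, 18.4 and 33.7 CPM in TAC (log2 difference 0.40 ± 0.24, edgeR adjusted p = 0.274). Aldh1a7, a close relative of Aldh1a1, had only 6 to 17 counts per library and a log2 difference of -0.09 ± 0.40. Of the 50-base windows of the Aldh1a1 transcripts 6.54% also occur in Aldh1a7, while those of Aldh1a2 occur in no other gene.

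Side by side, the RPKM ratio of Aldh1a2 to Aldh1a1 was 0.828, 0.650 and 1.06 in sham and 2.89, 1.68 and 2.87 in TAC. Aldh1a1 made up 52.7 ± 5.68% of the summed RPKM of Aldh1a1, Aldh1a2 and Aldh1a3 in sham and 28.5 ± 6.52% in TAC. The share of Aldh1a2 was 43.9 ± 5.95% in sham and 67.5 ± 6.20% in TAC. The sum of the 3 genes was 168.0 ± 10.7 RPKM in sham and 186.8 ± 29.5 in TAC, so the groups overlapped in the sum while they were apart in its makeup.

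**Figure D3:**
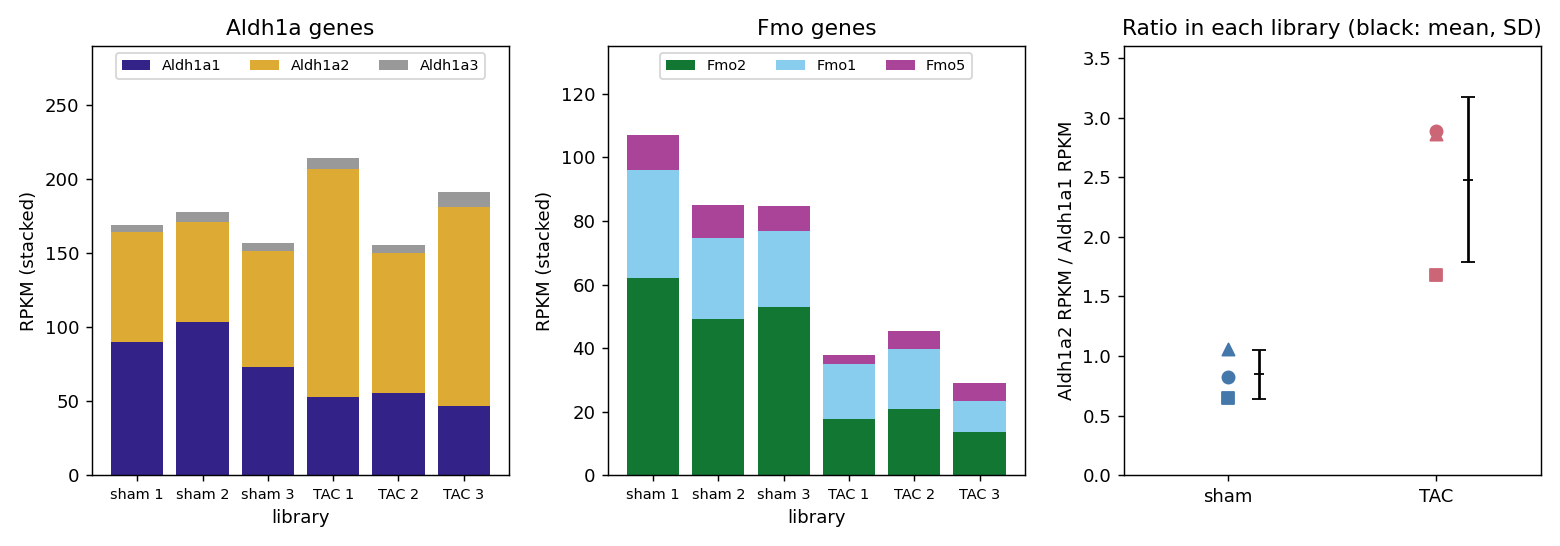
Stacked bars of RPKM per library for Aldh1a1, Aldh1a2 and Aldh1a3 (left) and for Fmo2, Fmo1 and Fmo5 (middle), and the RPKM ratio of Aldh1a2 to Aldh1a1 in each library with the group mean and SD (right). The Aldh1a bars overlap in height between groups while the ratio runs from 0.650 to 1.06 in sham and from 1.68 to 2.89 in TAC, and every TAC bar of the Fmo genes is shorter than every sham bar.

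The starts of the 2 genes called in opposite directions, Aldh1a1 and Aldh1a2, are shown because they differ in base composition while sharing an 8-base word. Each sequence covers 250 bases before to 50 bases after a transcription start, from RefSeq's GRCm38.p6 annotation, on the plus strand. The Aldh1a1 window lies at chr19:20601718-20602017 and the Aldh1a2 window at chr9:71215539-71215838. Capitals mark ATGCAAAT, the octamer motif, a word chosen after the sequences had been seen.
Aldh1a1: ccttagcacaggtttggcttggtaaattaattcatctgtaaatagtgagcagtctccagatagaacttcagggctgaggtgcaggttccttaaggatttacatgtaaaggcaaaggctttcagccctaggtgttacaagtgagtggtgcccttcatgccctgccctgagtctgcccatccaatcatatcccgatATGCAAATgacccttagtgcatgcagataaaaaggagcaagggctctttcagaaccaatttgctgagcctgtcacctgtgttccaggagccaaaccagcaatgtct
Aldh1a2: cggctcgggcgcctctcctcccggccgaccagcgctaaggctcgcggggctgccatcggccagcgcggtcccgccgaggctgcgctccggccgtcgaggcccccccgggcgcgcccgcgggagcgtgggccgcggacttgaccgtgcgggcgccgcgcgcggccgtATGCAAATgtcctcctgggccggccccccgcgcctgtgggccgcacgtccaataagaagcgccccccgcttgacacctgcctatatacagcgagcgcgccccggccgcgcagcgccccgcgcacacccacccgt
The Aldh1a2 window is a CpG-rich start with 50 CpG dinucleotides and 78.0% G and C, whereas the Aldh1a1 window has 1 CpG and 47.0%. Over the 32851 promoters of the table the median was 7 CpG (quartiles 3 and 20). The octamer, searched on both strands, was present in 1.74% of all promoters of this length and in 3 of the 21 described members with a promoter in the table. It began 56 bases before the start in Aldh1a1 and in Aldh1a7, whose windows match at 142 of their last 150 positions, and 84 bases before it in Aldh1a2. Upstream, Aldh1a1 has another listed start whose window holds 3 CpG and no octamer. These are matches of letters and not measured binding.

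Among the other aldehyde dehydrogenases, Aldh2 and Aldh6a1 fell. Both work in mitochondria, as does Aldh1l2, described below, which was not called. Aldh2 (chromosome 5, 121566027 to 121593824), which clears acetaldehyde and lipid peroxidation aldehydes, had 81.1, 75.6 and 74.4 CPM in sham and 43.6, 33.8 and 40.6 CPM in TAC. The groups were far apart relative to their spread, and the fall was 1.97-fold (log2 difference -0.98 ± 0.15, edgeR adjusted p = 0.000304). Aldh6a1 (chromosome 12, 84430717 to 84451024), the methylmalonate semialdehyde dehydrogenase of valine breakdown, had 39.1, 37.3 and 32.2 CPM in sham and 23.6, 22.4 and 20.7 CPM in TAC. It fell 1.63-fold without overlap (log2 difference -0.70 ± 0.18, edgeR adjusted p = 0.0122).

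Aldh3a2, which oxidises fatty aldehydes, was not called, with 61.6, 74.1 and 56.1 CPM in sham and 56.4, 54.5 and 44.2 CPM in TAC (log2 difference -0.30 ± 0.16, edgeR adjusted p = 0.207). Aldh18a1, a proline synthesis enzyme, had 46.1, 52.3 and 52.6 CPM in sham and 56.1, 58.2 and 49.9 CPM in TAC (0.12 ± 0.15, adjusted p = 0.613). Both groups overlapped in these genes. Aldh9a1, which acts in carnitine synthesis, had 31.0, 20.7 and 22.3 CPM in sham and 25.8, 17.2 and 15.9 CPM in TAC (-0.34 ± 0.24, adjusted p = 0.342).

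Aldh7a1, an enzyme of lysine breakdown, had 16.6 to 18.9 CPM in sham and 16.8 to 22.3 CPM in TAC and was not called. Aldh1l2, the mitochondrial formyltetrahydrofolate dehydrogenase, had 19.5, 22.8 and 11.9 CPM in sham and 36.2, 23.7 and 27.1 CPM in TAC. Its TAC libraries were all above its sham libraries, but the difference missed the threshold (log2 difference 0.68 ± 0.24, edgeR adjusted p = 0.0641). The Aldh1l2 transcripts share 16.8% of their 50-base windows with D10Wsu102e.

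Of the P450s that act on sterols, Cyp27a1 fell and the others were not called. Cyp27a1 (chromosome 1, 74713148 to 74737897), a mitochondrial enzyme that hydroxylates the side chain of cholesterol, had 51.1, 34.7 and 38.2 CPM in sham and 12.9, 13.7 and 13.2 CPM in TAC. The 3 TAC libraries lay within 1 CPM of each other and far below sham, a 3.10-fold fall (log2 difference -1.63 ± 0.20, edgeR adjusted p = 3.6e-05). Cyp7b1 and Cyp39a1, which hydroxylate oxysterols, had log2 differences of -0.22 ± 0.35 and -0.39 ± 0.25. Cyp51, which removes a methyl group from lanosterol on the way to cholesterol, had 46.6, 54.9 and 44.2 CPM in sham and 77.6, 51.0 and 52.0 CPM in TAC. Only TAC replicate 1 stood above the sham range (log2 difference 0.31 ± 0.18, edgeR adjusted p = 0.264).

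Cyp1b1 (chromosome 17, 79706940 to 79715061), a target of the aryl hydrocarbon receptor that oxidises estradiol and foreign aromatic compounds, was the most abundant P450 in both groups. It had 300.4, 219 and 297 CPM in sham and 239.9, 166 and 149.8 CPM in TAC. TAC replicate 1 was above sham replicate 2, so the groups overlapped, and the fall of 1.47-fold was near the threshold (log2 difference -0.56 ± 0.18, edgeR adjusted p = 0.0375). The call was absent in 7 of 15 alternative analyses, among them those without sham replicate 1, sham replicate 3, TAC replicate 2 or TAC replicate 3 (adjusted p 0.114, 0.119, 0.129 and 0.108).

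Cyp4v3 (chromosome 8, 45305801 to 45333163), a fatty acid hydroxylase, had 60.1, 44.5 and 48.1 CPM in sham and 34.1, 32.8 and 29.5 CPM in TAC. It fell 1.58-fold without overlap (log2 difference -0.66 ± 0.17, edgeR adjusted p = 0.0127), and without sham replicate 1 the adjusted p was 0.0662. Cyp2s1 (chromosome 7, 25802469 to 25816525), a P450 that metabolises retinoids and eicosanoids, had 7.51, 18.1 and 25.8 CPM in sham and 5.52, 8.85 and 9.32 CPM in TAC. Sham replicate 1 lay within the TAC range, and the fall (log2 difference -1.11 ± 0.36, edgeR adjusted p = 0.0424) lost its call in 10 of 15 alternatives, with an adjusted p of 0.272 without sham replicate 3.

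Cyp20a1, a P450 whose substrate is unknown, was high per length but not called, with 36.0, 37.8 and 41.2 CPM in sham and 34.4, 30.5 and 33.4 CPM in TAC (log2 difference -0.23 ± 0.17, edgeR adjusted p = 0.364), although its TAC libraries all lay below its sham libraries. Cyp2d22, of the drug-oxidising Cyp2d group, had 42.6, 29.0 and 26.3 CPM in sham and 33.1, 23.1 and 22.3 CPM in TAC and was not called either (-0.32 ± 0.22, adjusted p = 0.332). The arachidonic acid epoxygenases Cyp2j6 and Cyp2j9 had log2 differences of -0.56 ± 0.22 and -0.66 ± 0.39. Cyp4f13 and Cyp4f16, which act on fatty acids and eicosanoids, had -0.72 ± 0.40 and 0.20 ± 0.29. None of these 4 passed the test, with edgeR adjusted p from 0.0889 for Cyp2j6 to 0.669 for Cyp4f16. Of the Cyp4f16 windows, 26.5% also occur in other genes, and 24.8% in Cyp4f37.

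Of the P450s that act on vitamins, Cyp26b1, Cyp26a1 and Cyp2r1 were near the lower limit of detection. Cyp26b1, which breaks down retinoic acid, had 11, 2 and 1 counts in sham and 14, 15 and 15 in TAC. On the CPM scale its sham replicate 1 (5.51 CPM) was above every TAC library (3.49 to 4.51 CPM), and the difference was not called (log2 difference 0.78 ± 0.57, edgeR adjusted p = 0.371). Its relative Cyp26a1 stayed just outside the count rule with 4, 2 and 1 counts in sham and 17, 13 and 7 in TAC, and was not tested. Cyp2r1, a vitamin D hydroxylase just inside the rule, had 2, 8 and 8 counts in sham and 13, 12 and 15 in TAC, with a log2 difference of 0.29 ± 0.48 and of -0.13 without sham replicate 1.

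The 3 described Fmo genes all fell. Fmo2 (chromosome 1, 162874317 to 162898758) had 211, 160.1 and 175 CPM in sham and 61.0, 67.3 and 45.1 CPM in TAC. Its lowest sham library was above its highest TAC library by more than the spread of either group, and it had the smallest adjusted p of the 30 members (3.14-fold lower, log2 difference -1.65 ± 0.17, edgeR adjusted p = 4.22e-06). Fmo1 (chromosome 1, 162829561 to 162866610), its neighbour on the same chromosome, had 80.1, 58.0 and 55.1 CPM in sham and 41.4, 42.4 and 22.9 CPM in TAC. It fell 1.80-fold (log2 difference -0.85 ± 0.22, edgeR adjusted p = 0.0122), with an adjusted p of 0.0738 without sham replicate 1.

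Fmo5 (chromosome 3, 97609938 to 97655287), a monooxygenase that prefers carbonyl compounds, had 27.0, 24.3 and 18.4 CPM in sham and 7.06, 13.3 and 13.5 CPM in TAC. It fell 2.04-fold without overlap (log2 difference -1.03 ± 0.26, edgeR adjusted p = 0.0127), and the adjusted p was 0.0593 without sham replicate 1 and 0.0515 without sham replicate 2. Fmo2 made up 59.5 ± 2.74% of the summed Fmo RPKM in sham and 46.5 ± 0.491% in TAC. Neither Fmo1 nor Fmo2 transcripts share any 50-base window with another gene. Fmo4 never exceeded 3 counts in a library.

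The row named Ces3 had the log2 difference of the greatest size among the 30 members. It held 75, 85 and 69 counts in sham (37.6, 44.0 and 34.2 CPM) and 7, 15 and 42 counts in TAC (2.15, 3.49 and 12.6 CPM). TAC replicate 3 was the highest of its group and was still below every sham library. The fall was 6.43-fold (log2 difference -2.69 ± 0.38, edgeR adjusted p = 0.000115), and without TAC replicate 3 the log2 difference was -3.71. RefSeq lists Ces3 as an older name of both Ces1d, a triacylglycerol hydrolase of fat and liver, and Ces3a, a liver enzyme, so which of them the row counts was not settled, and no position is given.

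Of the 78 silent members, 40 had no read in any library (37 Cyp, 2 Ces and 1 Aldh) and 70 never reached 10 counts in a library. The 19 members of the drug-oxidising Cyp2a, Cyp2b and Cyp2c groups were all silent, with at most 4 counts, and the 6 Cyp3a members had no read. The 6 members of the steroid-synthesis families Cyp11, Cyp17, Cyp19 and Cyp21 had at most 2 counts. Cyp1a1, the best known target of the aryl hydrocarbon receptor, had 1 count over the 6 libraries. Besides Cyp26a1, the silent members with 10 or more counts in 2 libraries were Cyp8b1 (5, 16 and 21 counts in sham, 6, 8 and 3 in TAC), Cyp4b1 (8, 16 and 6, then 9, 14 and 8) and Aldh16a1 (1, 2 and 2, then 4, 11 and 15). No silent member was tested. A count of 0 covers up to 3 counts, or 0.699 to 1.55 CPM in 1 library. A further 22 genes of the same families are listed under other names and so fell outside the rule. Of these only 2210023G05Rik, now Ces2g, reached the same counts, with 35, 59 and 71 in sham and 37, 49 and 86 in TAC, and it was not called (log2 difference -0.79 ± 0.31, edgeR adjusted p = 0.0889). Without sham replicate 1 or TAC replicate 3 it was called lower (adjusted p = 0.0398 and 0.00461).

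Of 34 listed genes of retinoid binding, interconversion and reception, 18 were tested. Of these, 2 rose, 3 fell and the others were not called, with a median log2 difference of 0.07. Over all 12612 genes tested, 8.28% were called higher and 10.4% lower, with a median of 0.01. Rdh10, which makes retinaldehyde from retinol, had 95.1, 100.5 and 92.3 CPM in sham and 42.0, 31.7 and 58.3 CPM in TAC (log2 difference -1.13 ± 0.19, edgeR adjusted p = 0.000477). Every TAC library was below every sham library. Dhrs3, which returns retinaldehyde to retinol, rose (0.89 ± 0.30, edgeR adjusted p = 0.0475), and its groups overlapped because sham replicate 1 was high (58.1 CPM against 24.9 and 18.9). Dgat1, which can esterify retinol, and Rarres2, a retinoid-induced chemokine precursor, fell (-0.76 ± 0.21 and -0.67 ± 0.21, edgeR adjusted p = 0.0190 and 0.0325). Rdh10 kept its call in all 15 alternatives. The Dhrs3 call was absent in 6 of them, including those without sham replicate 2 or 3 or TAC replicate 1 (adjusted p up to 0.279), and the Rarres2 call in 6, including those without sham replicate 1 or 2 or TAC replicate 1 or 2 (up to 0.144). The Dgat1 call was absent in 4, including those without sham replicate 2 or TAC replicate 1 or 2 (up to 0.120).

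Among 25 genes of electron donors and xenobiotic sensors, 18 were tested, 2 rose and 3 fell. Their median log2 difference was -0.06, and of all genes tested 8.28% were called higher and 10.4% lower. Por, the reductase that feeds electrons to microsomal P450s, was not called (log2 difference -0.52 ± 0.20, edgeR adjusted p = 0.0829). Ahr, the aryl hydrocarbon receptor, was not called (0.17 ± 0.32, adjusted p = 0.747), and its repressor Ahrr had no read. Tiparp, a target of that receptor, had 726, 610.2 and 660.3 CPM in sham and 378, 256 and 281 CPM in TAC and fell (-1.13 ± 0.16, adjusted p = 9.85e-05). Hmox1, heme oxygenase, and Cyb5a, the microsomal cytochrome b5, fell as well (-1.13 ± 0.23 and -0.57 ± 0.15, edgeR adjusted p = 0.00238 and 0.0139). Cyb5r3, the cytochrome b5 reductase, rose (0.64 ± 0.13, adjusted p = 0.00292). Keap1, which holds back the antioxidant factor Nrf2, was the other gene that rose (1.51 ± 0.47, adjusted p = 0.0337). Its TAC values were 6.75, 11.9 and 29.2 CPM against 4.14 to 6.51 in sham, and without TAC replicate 3, or without any 1 of the sham libraries, it was not called (adjusted p 0.0705 to 0.177). Without sham replicate 2 the Cyb5a call was lost (adjusted p = 0.0608), and without TAC replicate 1 Por was called lower (adjusted p = 0.0221). Without TAC replicate 2 the log2 difference of Ahr was -0.18.

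Of 32 other oxidoreductases and hydrolases of aldehydes and foreign compounds, 20 were tested, 5 fell and 1 rose. Their median log2 difference was -0.22, and of all genes tested 10.4% were called lower and 8.28% higher. Xdh, xanthine dehydrogenase, had 146, 157 and 150.3 CPM in sham and 42.0, 44.7 and 53.5 CPM in TAC (log2 difference -1.69 ± 0.14, edgeR adjusted p = 6.72e-07). Aox1, aldehyde oxidase, fell by 1.58 on the log2 scale (edgeR adjusted p = 0.00113) and Pon3, a lactone hydrolase, by 0.61 (adjusted p = 0.0094). Maob, monoamine oxidase B, fell from 41.7 ± 2.22 to 15.7 ± 0.685 CPM (SD, edgeR adjusted p = 4.67e-05). The others were Nceh1, a cholesterol ester hydrolase that fell (-1.23 ± 0.33, adjusted p = 0.0166, and 0.118 without sham replicate 2), and Akr1a1, an aldehyde reductase that rose (0.55 ± 0.16, edgeR adjusted p = 0.0249). The Akr1a1 call was lost without sham replicate 1, sham replicate 3 or TAC replicate 3 (adjusted p 0.0728 to 0.103). Among 27 conjugating enzymes, 13 were tested, none rose and 3 fell, while the median was 0.16. These were the methyltransferase Inmt (-2.96 ± 0.37), Ugdh, which makes UDP-glucuronate (-1.10 ± 0.16), and the sulfotransferase Sult1a1 (-1.83 ± 0.45), with edgeR adjusted p = 3.83e-05, 0.000179 and 0.00913. The Sult1a1 call was lost without sham replicate 3 or TAC replicate 2 (adjusted p = 0.0612 and 0.0562). Some tested rows of the conjugating list may hold the same reads. Ugt1a1 had 15, 10 and 13 counts in sham and 18, 30 and 31 in TAC. Ugt1a2 had 15, 10 and 14, then 18, 31 and 31, and Ugt1a7c was close to both. The list median of 0.16 is the Ugt1a2 value, so its sign may rest on reads counted more than once.

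Of 28 genes of steroid, oxysterol and vitamin D handling, 20 were tested, 4 fell and none rose, with a median log2 difference of -0.34. The shares over all genes tested were 10.4% lower and 8.28% higher, with a median of 0.01. Hsd11b1, which regenerates active glucocorticoid, fell by 1.99 on the log2 scale (± 0.24, edgeR adjusted p = 2.43e-05). The mineralocorticoid receptor Nr3c2 (-1.87 ± 0.25) and the glucocorticoid receptor Nr3c1 (-0.46 ± 0.14) also fell, with edgeR adjusted p = 6.09e-05 and 0.0324. The Nr3c1 call was absent in 8 of 15 alternatives, including each omission of a single library other than TAC replicate 2 (adjusted p up to 0.127). Among 21 eicosanoid genes outside the Cyp names, 10 were tested, 1 rose and 1 fell, near the shares over all genes tested. Their median log2 difference was -0.10. Ptgis, prostacyclin synthase, is a P450 by structure that lacks the Cyp name, and it had 111, 102 and 115 CPM in sham and 130.1, 149.7 and 167 CPM in TAC (log2 difference 0.45 ± 0.14, edgeR adjusted p = 0.0341). Hpgd, which inactivates prostaglandins, fell (-0.93 ± 0.25, adjusted p = 0.0139). The Ptgis call was absent in 7 of 15 alternatives, including each omission of a single library other than TAC replicate 1 (adjusted p up to 0.153), and the Hpgd call without sham replicate 3 or TAC replicate 2 (0.0656 and 0.0516).

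**Figure D4:**
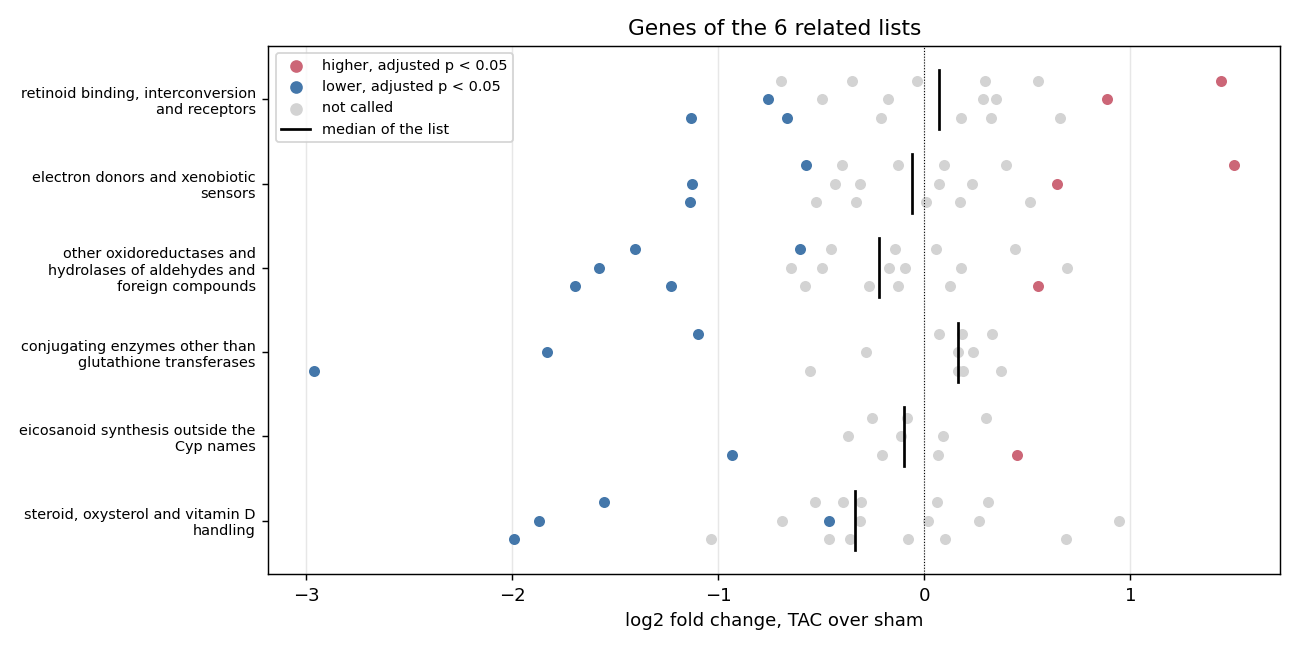
Log2 differences of TAC against sham for the tested genes of each of 6 pathway lists, with called genes marked and the list median as a line. The medians run from -0.34 for steroid, oxysterol and vitamin D handling to 0.16 for conjugating enzymes, and the retinoid list has 2 called genes above 0 and 3 below. In the conjugating list, Ugt1a rows that may hold the same reads are each counted. Of all genes tested, 8.28% were called higher and 10.4% lower.

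Markers of other cells moved between the groups as well. For the counts of called markers, the shares over all genes tested were 8.28% higher and 10.4% lower. Macrophage markers summed to 69.6, 22.3 and 22.8 CPM in sham replicates 1 to 3 and 78.8, 79.9 and 239 CPM in TAC replicates 1 to 3. Of 7 tested genes 3 were higher, and the upper end of the TAC sums was TAC replicate 3 alone. Pericyte markers summed to 2861, 2633 and 4161 CPM in sham replicates 1 to 3 and 2275, 1966 and 997 CPM in TAC replicates 1 to 3, with 2 of 8 lower. Epicardial and mesothelial markers summed to 249 to 475 CPM in sham and 86.2 to 175 CPM in TAC, with 3 of 8 lower. Schwann cell and neuronal markers summed to 132 to 155 CPM in sham and 50.2 to 68.7 CPM in TAC, with 5 of 6 lower. Endothelial markers summed to 217 to 289 CPM in sham and 168 to 188 CPM in TAC, with 1 of 6 higher (Erg) and 2 lower (Tek and Esam). Tek alone gave 189 to 198 CPM in sham and 85.4 to 102 in TAC, and the other endothelial markers together gave 28.0 to 90.8 CPM in sham and 65.2 to 102 in TAC, which overlapped. Smooth muscle, cardiomyocyte and adipocyte sums overlapped between the groups. Hepatocyte markers summed to 2.59 to 8.93 CPM in sham and 3.96 to 8.59 CPM in TAC, mostly from Ahsg, the 1 tested gene of the 9, which was not called, and Alb, Ttr and Fgb had no read in any library. Of the fibroblast markers themselves 2 of 10 rose and 6 fell, with a median log2 difference of -0.68. Dcn alone gave 10098 to 12043 CPM in sham and 6590 to 7381 in TAC. The other fibroblast markers together gave 12502 to 15914 CPM in sham and 17335 to 19667 in TAC. The part of these shifts in the changes of the enzymes was not tested.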

How the data were processed

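RNA of 6 libraries, 3 per group, was read as single 50-base reads from an unstranded kit, per the labels' protocols. The authors deposited read counts per gene, which the file headers credit to NextGENe 2.3.3, and RPKM values in the same reports. The submitters' processing notes name mm10 and Partek 6.6 without their roles. The handling of multiply matched reads is not stated there, so counts of near-identical and overlapping genes are uncertain. The deposited counts were analysed in R 4.3.3 with edgeR 4.0.16: filterByExpr left 12612 genes, libraries were scaled by TMM, and groups were compared by its two-sided quasi-likelihood test, with p-values adjusted after Benjamini and Hochberg. Standard errors came from the F statistic. The steps were tested on simulated data. Alternatives were RLE and upper quartile scaling, no filter, DESeq2 1.42.0, limma 3.58.1 (voom, and log2 of RPKM with pseudocounts of 1 and 0.1), the replicate number as a block, and omitting 1 library at a time. Thinning to the least deep library was added after seeing the data. Members and gene lists were chosen with earlier results of these data known. Per-library values are given for called members and the 6 uncalled ones with the highest RPKM, and for each gene list up to 4 called genes with the smallest adjusted p. Cyp26b1, Cyp26a1, Cyp2r1, Aldh1a3, Aldh1a7, Aldh1l2, Aldh7a1, Dhrs3, Keap1, Akr1a1, Nceh1, Por, Ahr, Ahrr, Ces2g and the silent members named fall outside that rule and were chosen after their values were seen. Positions come from RefSeq's table of GRCm38.p6, which matched 99 members by current name and 6 by an older one, and shared windows from GENCODE M21 transcripts. Motifs TNGCGTG and TGACNNNGC were searched on both strands as well. The first was in 5.07% of all promoters and in those of 3 of 21 members, none of them called. The second was in 12.4% of all promoters and in those of 3 of 21 members, Aldh1a2, Aldh9a1 and Cyp2j6, of which only Aldh1a2 was called. A member with more than 1 listed start was counted once. Some genes that the rules select are not reported here.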

Additional observations from a re-analysis of the deposited data

How the results depend on the processing

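Over 15 alternatives, 6 members stayed lower in each (Aldh1a1, Aldh2, Aldh6a1, Ces3, Cyp27a1 and Fmo2) and Aldh1a2 stayed higher in each, with a log2 difference from 0.62 to 1.01 and an adjusted p from 7.21e-07 to 0.0378. The number of lower members was 11 in the reported analysis, 9 to 11 under other scalings, filters and tools, 10 after thinning to the smallest library, and 7 to 10 when 1 library was left out, the 7 without sham replicate 1. The number of higher members was 1 in the reported analysis and 2 under upper quartile scaling, without a filter and with the replicate number as a block, each time through Aldh1l2, and it ranged from 1 to 2 with 1 library left out. With the replicate block 11 members were lower. The labels number the replicates alike in both groups, and deviations of same-numbered libraries correlated at 0.0824, 0.0251 and -0.0862. With 3 libraries per group these values cannot decide whether the numbers pair the samples. Of 270 alternative values for the 18 members given with full statistics, 249 kept their call or lack of one, 21 lost significance (Cyp2s1 10, Cyp1b1 7, Fmo5 2, Cyp4v3 and Fmo1 1 each) and 0 changed direction. Of 164 values for the other 12 members, 4 gained a call (Aldh1l2 3, Cyp26b1 1) and 1 changed direction, Cyp2r1 without sham replicate 1 (-0.13, with a range up to 0.56 over the omissions of 1 library). Of 419 values for 28 genes outside the members (Ces2g among them), 358 kept their call or lack of one, 53 lost significance, 7 gained it (Por 3, Ces2g 4) and 1 changed direction, Ahr without TAC replicate 2 (-0.18, with a range up to 0.51). Por and Ces2g were called with the replicate block (adjusted p = 0.0367 and 0.0193). The cause of these changes was not tested. Depth limits the low members: a change in Cyp26b1, Cyp2r1 or Aldh1a7, with 17 counts at most, could be missed.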
